A study of Mus musculus with 5 samples.

Results

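Chemokines are small secreted proteins that direct the movement of leukocytes, and each acts through receptors of the G-protein-coupled kind. The set described here was chosen by gene symbol: every Ccl, Cxcl, Ccr, Cxcr and Ackr gene with a number, plus Cx3cl1, Cx3cr1, Xcl1, Xcr1, Ccrl2, Pf4 and Ppbp. It came to 63 of the 46983 genes in the count table, 40 of them ligands and 23 receptors. These genes were followed in Kupffer cells, the macrophages that live in the liver sinusoids, of mice of 2 Id3 genotypes. The Id3-/- group, called knockout below, had 2 samples (replicates 2 and 3). The Id3+/- group, called heterozygous, had 3 samples (replicates 1, 2 and 3) and itself carries 1 mutant copy, so no wild-type sample entered the comparison. Poly-A RNA went through SMART-seq V4 amplification, from livers pushed through a 100 µm filter in cold PBS. The labels give neither the age nor the sex of the mice, the sort that isolated the cells or the part of Id3 that was removed, and they do not say whether samples came from separate animals. P-values therefore reflect how much these samples vary, and part or all of that variation may be technical.

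Kupffer cells sit where portal blood enters the liver and are a known source of chemokines that draw monocytes, neutrophils and lymphocytes into the organ. Binding of a chemokine activates inhibitory G proteins in the responding cell, which turns toward the source, while atypical receptors bind chemokines without that signal and clear them. Id3 lacks a DNA-binding region and pairs with E proteins, which then cannot reach their DNA sites, called E-boxes.

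Promoter sequences of the genes that the results below turn on are shown first. RefSeq windows of 250 bases before to 50 bases after the gene start (assembly GRCm38.p6) matched 48 of the 63 genes, with 57 windows, and both strands were searched for GGGA, any base, TT, any base and CC, letters that NF-κB proteins can bind, and for CAGNTG, a form of the E-box. The neighbouring neutrophil-attracting ligand genes Cxcl1 (chr5:90890995-90891294, plus strand), Cxcl2 (chr5:90903649-90903948, plus strand) and Cxcl3 (chr5:90785851-90786150, plus strand) are given to compare related genes, Ccr3 (chr9:124021721-124022020, plus strand) as the receptor with the largest decrease, and Cxcl9 (chr5:92328030-92328329, minus strand) as the ligand with the largest decrease. Capitals mark the letters of either motif on either strand, and no NF-κB match overlapped an E-box match.
Cxcl1: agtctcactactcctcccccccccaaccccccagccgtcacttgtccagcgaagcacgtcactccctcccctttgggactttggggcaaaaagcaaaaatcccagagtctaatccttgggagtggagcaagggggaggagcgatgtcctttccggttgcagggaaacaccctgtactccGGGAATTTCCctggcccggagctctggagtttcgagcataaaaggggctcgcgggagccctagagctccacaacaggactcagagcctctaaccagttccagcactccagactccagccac
Cxcl2: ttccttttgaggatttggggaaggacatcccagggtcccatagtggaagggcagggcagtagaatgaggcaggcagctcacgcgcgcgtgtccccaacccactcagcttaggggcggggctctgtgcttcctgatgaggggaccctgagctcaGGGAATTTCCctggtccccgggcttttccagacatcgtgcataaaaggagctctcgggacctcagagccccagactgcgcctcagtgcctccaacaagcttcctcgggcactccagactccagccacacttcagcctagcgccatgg
Cxcl3: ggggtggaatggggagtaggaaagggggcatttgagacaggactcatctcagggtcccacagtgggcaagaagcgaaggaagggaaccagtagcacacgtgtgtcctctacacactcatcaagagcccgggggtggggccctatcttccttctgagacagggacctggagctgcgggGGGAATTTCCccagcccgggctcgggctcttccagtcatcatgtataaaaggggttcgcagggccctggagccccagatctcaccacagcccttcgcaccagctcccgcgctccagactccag
Ccr3: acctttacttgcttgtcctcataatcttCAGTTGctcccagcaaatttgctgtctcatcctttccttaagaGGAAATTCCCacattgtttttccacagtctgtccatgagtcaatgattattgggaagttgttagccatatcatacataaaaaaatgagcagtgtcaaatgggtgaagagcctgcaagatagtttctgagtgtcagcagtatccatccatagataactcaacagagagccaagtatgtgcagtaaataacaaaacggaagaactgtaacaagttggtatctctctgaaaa
Cxcl9: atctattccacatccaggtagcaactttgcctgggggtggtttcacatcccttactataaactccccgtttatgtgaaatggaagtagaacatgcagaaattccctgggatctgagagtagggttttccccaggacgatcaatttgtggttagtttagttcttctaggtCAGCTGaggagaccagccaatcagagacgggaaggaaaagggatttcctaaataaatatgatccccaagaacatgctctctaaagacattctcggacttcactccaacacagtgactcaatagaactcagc
The NF-κB letters began 71 bases before the start of Cxcl1, 97 bases before that of Cxcl2, 73 bases before that of Cxcl3 and 179 bases before that of Ccr3. Besides these 4 genes, only the windows of Cxcl10 and Ccr6 among the 48 genes held them. That is 6 of 57 windows (10.5%), against 1.20% of the 32851 windows of all genes. E-box letters were common: they were found in 56.1% of the windows of this gene set and in 51.4% of all windows. They stood in the windows of 4 of the 5 genes with a window that were called higher in the knockout (Ccrl2, Cxcr2, Cxcr3 and Pf4) and of 4 of the 5 that were called lower (Ccr3, Cx3cr1, Cxcl13 and Cxcl9). In Ccr3 they began 222 bases and in Cxcl9 81 bases before the start. A match of letters is a description of the window and does not show that a protein binds there.

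Each library held between 74.8M and 80.9M reads counted in genes. Levels are given below as CPM, counts scaled to a common library size, after TMM normalisation, which corrects that size by a trimmed mean of gene ratios. Values are listed in the order knockout libraries 2 and 3 and heterozygous libraries 1, 2 and 3. The targeted gene Id3 was at 1.01 and 1.42 CPM in the knockout and at 229, 221 and 256 CPM in the heterozygous libraries. The 11 Kupffer cell markers summed to 51071 and 44233 CPM in the knockout and to 44576 to 47967 CPM in the heterozygous libraries. Clec4f, a lectin of Kupffer cells, was at 13582 CPM or above in every library. In the edgeR test described below, Marco was higher in the knockout and C6 and Cdh5 were lower. DESeq2 called 2 of the 11 higher and 5 lower. Other cell types left traces that differed between libraries: hepatocyte markers summed to 4332 and 10828 CPM in the knockout against 19323 to 22561 CPM in the heterozygous libraries, with 6 of 10 lower. Some granulocyte granule genes were high in knockout library 2 alone, where Ngp was at 78.3 CPM and Prg2 at 74.1 CPM, while cholangiocyte markers were highest in knockout library 3, with Krt7 at 17.7 CPM and at most 3.59 CPM elsewhere.

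Of the 63 genes, 45 had enough counts to be tested, 14 fell under the filter on low counts and 4 had 0 counts in every library. Genotypes were compared with edgeR's quasi-likelihood test, and a gene was called where its p, adjusted by Benjamini-Hochberg over the 16436 genes tested, was under 0.05. In all, 13 of the 45 genes were called (28.9%), against 16.4% of all genes tested. In the knockout, 7 were higher (15.6%, against 6.41% of all genes), namely Cxcl1, Ccl4, Cxcl16, Pf4, Cxcr2, Cxcr3 and Ccrl2. Another 6 were lower (13.3%, against 10.0% of all genes), among them Cxcl9, Cxcl13, Cxcl14, Ccr3 and Cx3cr1. Libraries of the genotypes did not overlap for 27 of the 45 genes (60.0%, against 51.5% of all genes), with the knockout above the heterozygous libraries for 14 (31.1%, against 24.6%) and below for 13 (28.9%, against 26.9%). The median log2 fold change of the 45 genes was 0.09, beside -0.02 for all genes, and 25 of them lay above 0. Leaving out knockout library 2 or 3, which leaves 1 knockout sample, ended the call of several of these 13 genes. Each of these fits also called genes of the set that were not among the 13. Among all 5 fits without a single library, the lowest number called was 1, without heterozygous library 2, and that gene was Ccr3. The filter needs its count to be reached in 2 libraries. Of the 45 genes tested, Cxcr2 reached it in 0 heterozygous libraries, and Ccl22 and Ccr10 in 1. These genes therefore passed through the knockout libraries. Ccr6 reached it in 1 knockout library and passed through the heterozygous ones. A difference was thus built into the selection of each of them.

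**Figure D1:**
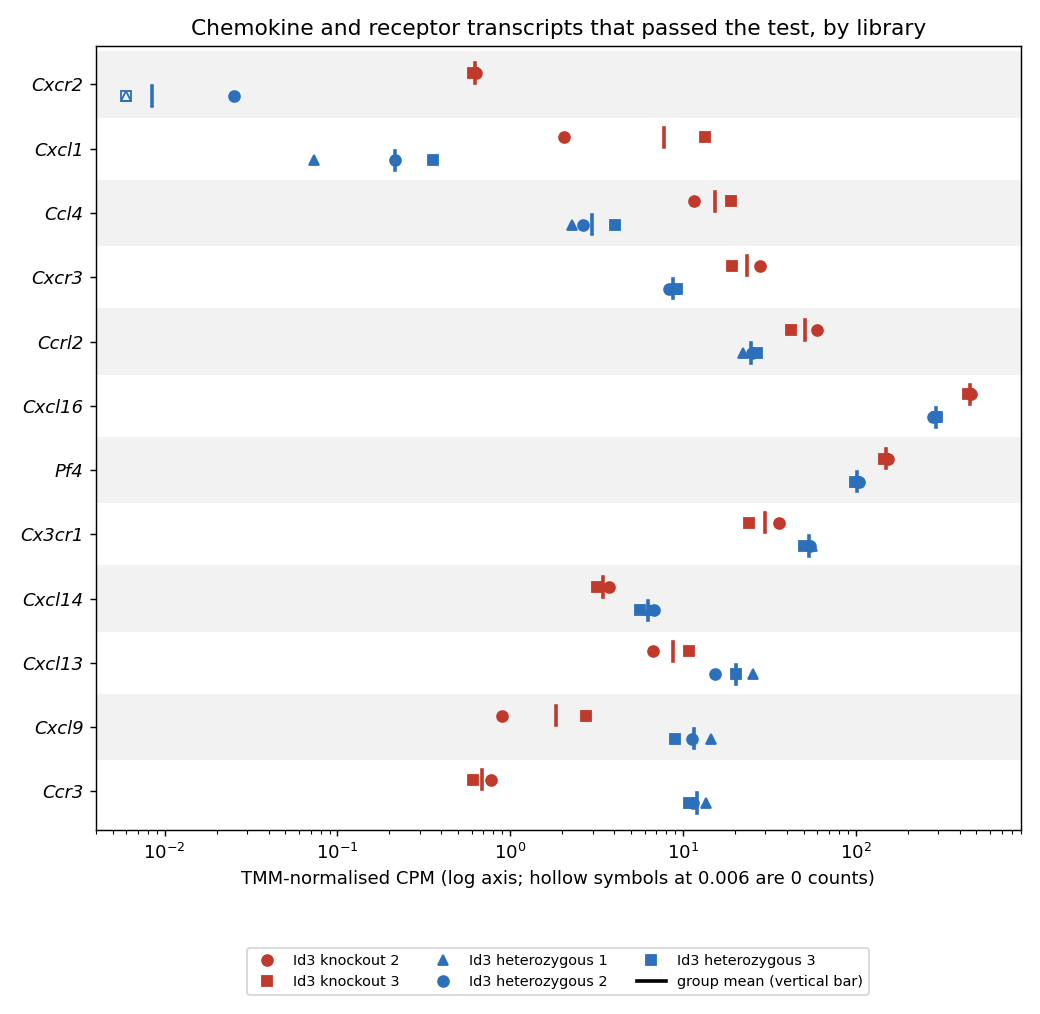
TMM-normalised CPM on a log axis of 12 of the 13 genes called, ordered by log2 fold change, with each knockout library in red above each heterozygous library in blue and a vertical bar at each group mean. The groups do not overlap for any of these 12 genes; Ccr3 stayed under 1 CPM in both knockout libraries and above 10 CPM in all 3 heterozygous libraries.

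By class the numbers are small, and no difference between classes was tested. Over all genes tested edgeR called 6.41% higher and 10.0% lower. Of 14 tested CC ligands edgeR called 1 higher and 0 lower, with 5 higher and 2 lower at an unadjusted p under 0.05. DESeq2, with 20 CC ligands in its fit, and limma-voom, with 14, each called 4 higher and 0 lower. Over all genes edgeR called 1054 higher, DESeq2 2023 and limma-voom 1189. Of 10 tested CXC ligands 3 were higher and 3 lower. All 5 tested CXC receptors had a log2 fold change above 0, between 0.67 and 5.94, and 2 were called higher. The 5.94 is that of Cxcr2, 1 of these 2, which passed the filter only through the knockout libraries. Its direction was thus built into its selection. The median log2 fold change over all genes tested was -0.02. Together the 63 genes took 0.308% and 0.327% of all counts in the knockout libraries and 0.304% to 0.321% in the heterozygous libraries, so the groups overlapped. The receptors alone took 0.0288% in each knockout library against 0.0389% to 0.0442% in the heterozygous libraries. The ligand share was 0.279% and 0.298% in the knockout against 0.260% to 0.282% in the heterozygous libraries.

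**Figure D2:**
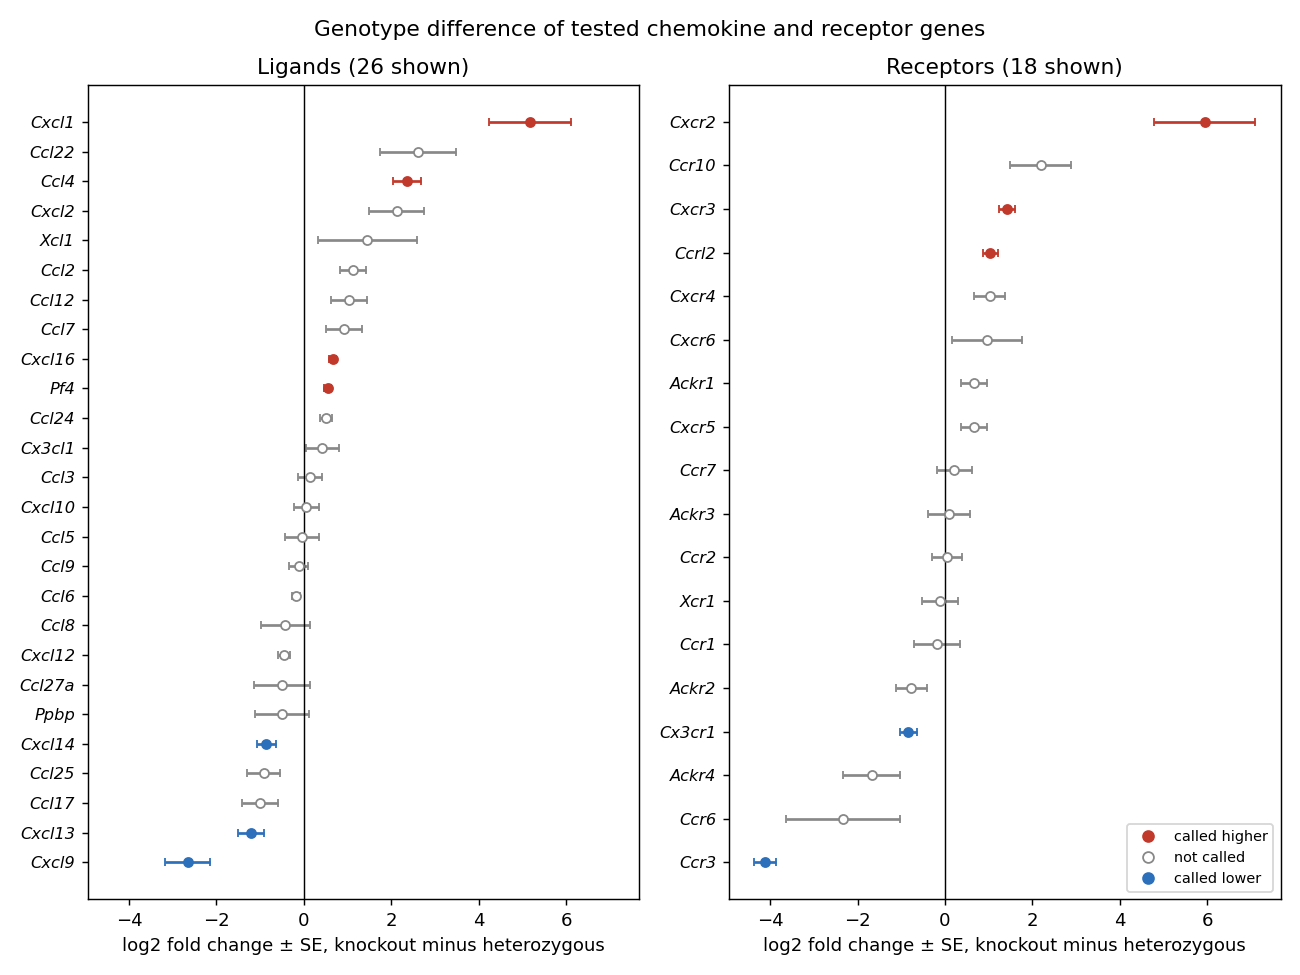
Log2 fold change ± SE (knockout minus heterozygous, n = 2 and 3) of 26 ligands and 18 of the 19 receptors tested, with red for called higher, blue for called lower and hollow grey for not called. Fold changes run from -4.12 (Ccr3) to 5.94 (Cxcr2), and the fitted value of Cxcr2 depends on heterozygous libraries with almost no counts.

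Per kilobase of exon, which lets genes of different length be set side by side, a few ligands made up most of the signal. Ccl6, a CC ligand that macrophages secrete in mice, led with a mean of 885 CPM per kilobase over the 5 libraries, followed by Ccl24 at 358, Pf4 at 168, Cxcl16 at 118 and Ccl9 at 26.1 CPM per kilobase. Among receptor transcripts, Ccrl2 was at 13.5, Cx3cr1 at 9.78 and Cxcr3 at 8.50 CPM per kilobase. Ccl6 alone took 46.8% and 46.0% of the counts of all 63 genes in the knockout against 52.0% to 55.1% in the heterozygous libraries.

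**Figure D3:**
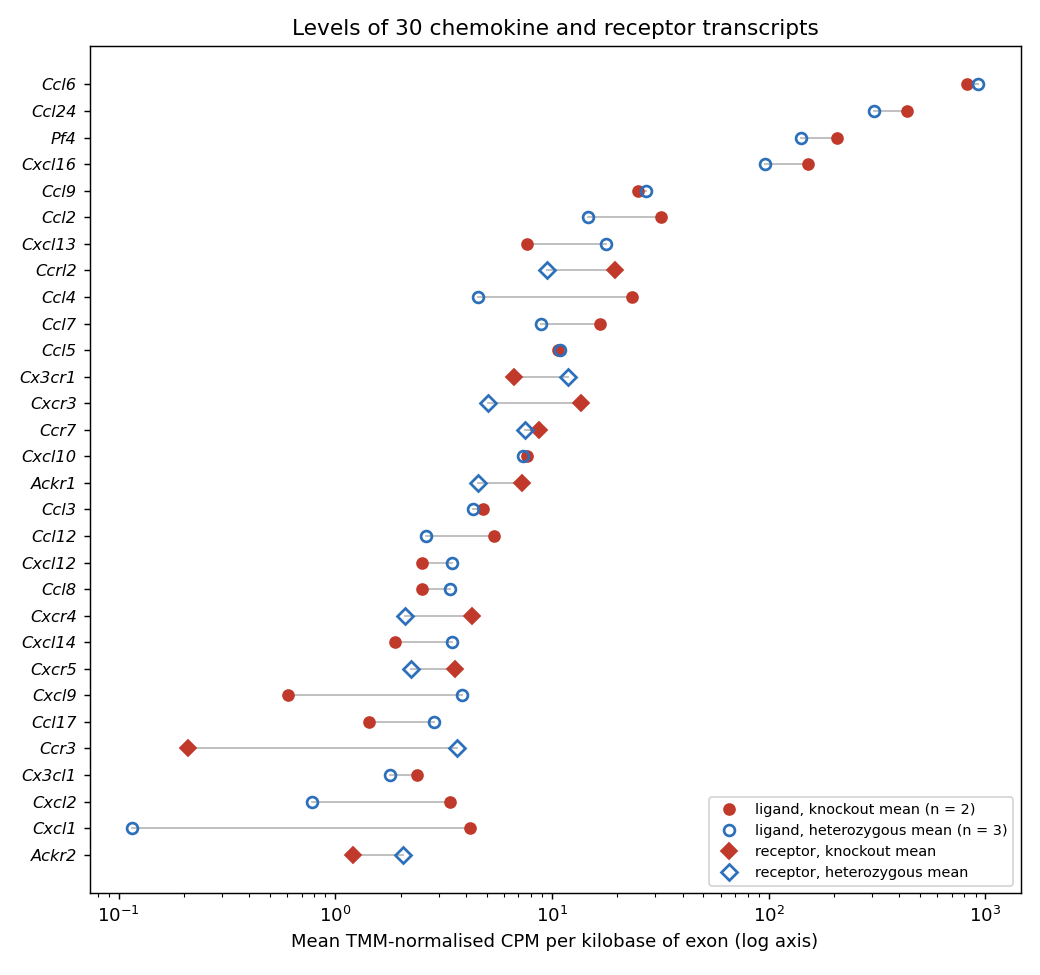
Mean TMM-normalised CPM per kilobase of exon (log axis) of 30 genes high by that measure, with filled red for the knockout mean, hollow blue for the heterozygous mean, circles for ligands and diamonds for receptors. Ccl6 and Ccl24 lead, and the widest gaps between the genotypes are those of Cxcl1 and Ccr3.

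Ccr3, the receptor for eotaxins that is best known on eosinophils, fell further than any other gene of the set. It was at 0.769 and 0.607 CPM in the knockout libraries and at 13.6, 11.5 and 10.9 CPM in the heterozygous libraries. Every knockout library was far below every heterozygous library, with 105 counts in the knockout and 2815 counts in the heterozygous group. On the log2 scale the difference was -4.12 ± 0.25 (SE, edgeR adjusted p = 0.00223). It was the only gene of the set called in all 5 fits without a single library, in which the value ran from -4.30 to -3.95. Because the RNA came from whole samples, fewer cells of a type and less RNA per cell cannot be told apart, here or for the genes below. Among markers of eosinophils and basophils, Mcpt8, Cpa3, Fcer1a and Il5ra had 0 counts in every library, and edgeR called 0 of the 4 tested, with 2 higher at an unadjusted p under 0.05; DESeq2 called 4 of 6 higher and limma-voom 0 of 4. The sum of the 10 markers was 201 and 127 CPM in the knockout against 101 to 128 CPM in the heterozygous libraries. Siglecf, a lectin of eosinophils, was at 4.63 and 5.32 CPM in the knockout and 4.09 to 6.46 CPM in the heterozygous libraries, so it overlapped. Epx, an eosinophil peroxidase, was at 13.4 CPM in knockout library 2, and Ccr3 was at 0.769 CPM there. The part of these cells in the value of Ccr3 was not tested.

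Among ligands of Ccr3 only Ccl24 had enough counts to test, and edgeR did not call it, although DESeq2 and limma-voom did and its unadjusted p was 0.0105. Ccl24, an eotaxin that macrophages make, was at 541 and 589 CPM in the knockout libraries and at 366, 353 and 471 CPM in the heterozygous libraries. Both knockout libraries were above all heterozygous ones, but the log2 fold change of 0.51 ± 0.14 missed the threshold (edgeR adjusted p = 0.0583), and heterozygous library 3 was the nearest to the knockout. Without that library the value was 0.65 and passed (edgeR adjusted p = 0.0219). Ccl11 had 5 counts in knockout library 2 and none elsewhere, and Ccl26 had 1 count in heterozygous library 2, so neither could be tested.

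Ccl4, also known as MIP-1β, was at 11.6 and 19.1 CPM in the knockout libraries and at 2.29, 2.64 and 4.05 CPM in the heterozygous libraries. The lower knockout library was still well above the highest heterozygous library. Its log2 fold change was 2.36 ± 0.33 (edgeR adjusted p = 0.0122), and the call was lost only without heterozygous library 2 among the fits that leave out a library (2.28, edgeR adjusted p = 0.0582). Its relative Ccl3, or MIP-1α, was at 3.62 and 3.70 CPM in the knockout against 2.66 to 4.02 CPM in the heterozygous libraries, with the groups overlapping (0.14 ± 0.27, edgeR adjusted p = 0.778).

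The other inflammatory CC ligands of this family, Ccl5, Ccl6 and Ccl9, were not called. Ccl6 was at 1479 and 1473 CPM in the knockout libraries and at 1559, 1614 and 1816 CPM in the heterozygous libraries, with both knockout libraries lowest (-0.17 ± 0.09, edgeR adjusted p = 0.254). With length and GC offsets its sign turned (0.08). Ccl9, a CC ligand of myeloid cells, was at 69.2 and 82.0 CPM in the knockout and at 93.9, 94.1 and 58.9 CPM in the heterozygous libraries, which overlapped (-0.12 ± 0.22, edgeR adjusted p = 0.758). Offsets turned its sign too (0.36). Ccl5, or RANTES, which T and NK cells make in quantity, was at 13.2 and 7.22 CPM in the knockout and at 14.8, 9.35 and 7.35 CPM in the heterozygous libraries, and no direction held across fits (-0.04 ± 0.38, edgeR adjusted p = 0.957). The receptor Ccr1 was at 2.19 and 1.27 CPM in the knockout against 0.913 to 2.54 CPM in the heterozygous libraries, which overlapped.

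Ccl2, Ccl7 and Ccl12, ligands of the monocyte receptor Ccr2, had higher means in the knockout, and Ccl8, another ligand of the family, had a lower mean (log2 fold change -0.42 ± 0.56, edgeR adjusted p = 0.662). Of Ccl2, Ccl7 and Ccl12 edgeR called 0, with Ccl2 and Ccl12 at an unadjusted p under 0.05; DESeq2 and limma-voom called Ccl2. Ccl2, or MCP-1, was at 32.7 and 39.9 CPM in the knockout libraries and at 13.9, 12.1 and 24.1 CPM in the heterozygous libraries. The groups did not overlap, and heterozygous library 3 was the highest of its group. The log2 fold change of 1.12 ± 0.30 narrowly missed the threshold (edgeR adjusted p = 0.0541). It passed without heterozygous library 3 (1.48, edgeR adjusted p = 0.0185).

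Ccl7, or MCP-3, was at 10.7 and 16.0 CPM in the knockout and at 4.22, 5.85 and 11.2 CPM in the heterozygous libraries. Heterozygous library 3 lay above knockout library 2, and the log2 fold change was 0.92 ± 0.42 (edgeR adjusted p = 0.192). Without that heterozygous library it was 1.41 (edgeR adjusted p = 0.0429). Ccl12, or MCP-5, a ligand found in mice, was at 2.03 and 3.77 CPM in the knockout against 1.05 to 1.84 CPM in the heterozygous libraries (1.04 ± 0.41, edgeR adjusted p = 0.132). Ccr2 itself was at 3.01 and 4.82 CPM in the knockout and at 3.06 to 4.97 CPM in the heterozygous libraries, fully overlapping (0.05 ± 0.34, edgeR adjusted p = 0.946). Monocyte markers summed to 1244 and 1258 CPM in the knockout against 1060 to 1289 CPM in the heterozygous libraries, with Ly6c2, Ace and Nr4a1 higher and Fn1 lower among 9 tested. Their part in these values was not tested.

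Cxcr2, a receptor of neutrophils, and its ligand Cxcl1 were called higher. Cxcl1, the ligand often called KC, was at 2.06 and 13.5 CPM in the knockout libraries and at 0.0730, 0.215 and 0.357 CPM in the heterozygous libraries. Knockout library 3 was several times above knockout library 2, and both were above every heterozygous library. From 1202 counts in the knockout and 49 counts in the heterozygous group, the ratio of levels was 37.6 with a 95% exact interval of 28.2 to 51.0 for counting error alone. The fitted log2 difference was 5.18 ± 0.94 (edgeR adjusted p = 0.0209). Without knockout library 3 it was 3.26 and no longer called (edgeR adjusted p = 0.0555). The call was also lost without heterozygous library 1 (4.76, edgeR adjusted p = 0.0640) or 2 (5.19, edgeR adjusted p = 0.0817) and with limma-voom (4.88, adjusted p = 0.0817).

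Cxcr2, the neutrophil receptor for these ligands, was at 0.637 and 0.607 CPM in the knockout libraries and at 0, 0.0253 and 0 CPM in the heterozygous libraries. Almost all of its counts lay in the knockout, 95 against 2, and it passed the filter on low counts only through the knockout libraries, so that a difference was built into its selection. The ratio of levels was 72.7, with a 95% exact interval of 19.6 to 609 for counting error. It was called (edgeR adjusted p = 0.0242), but of the 5 fits without a single library only the fit without heterozygous library 3 kept the call. In the other 4 fits the adjusted p ran from 0.0535 to 0.0953.

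Some neutrophil markers were also higher in the knockout. The sum of 10 markers was 473 and 190 CPM in the knockout against 95.1 to 115 CPM in the heterozygous libraries, and without Mmp9 it was 214 and 32.4 CPM in the knockout against 7.37 to 11.6 CPM in the heterozygous libraries. Of 7 tested, S100a8, S100a9, Ngp and Mmp9 were higher, while Retnlg (log2 fold change -0.07), Mmp8 (-0.21) and Ltf (6.12) were not called. Ltf was at 40.5 and 0 CPM in the knockout against 0 to 0.604 CPM in the heterozygous libraries. Ngp was at 78.3 and 0.465 CPM in the knockout against 0 to 0.329 CPM. The sum without Mmp9 was highest in knockout library 2, whereas Cxcl1 was highest in knockout library 3 and Cxcr2 was alike in both. S100a8, a calcium-binding protein of neutrophils, was at 38.7 and 15.9 CPM in the knockout against 1.56 to 4.53 CPM in the heterozygous libraries. The early granule genes Mpo and Elane stayed at or below 0.220 CPM in every library. Their part in the rise of Cxcr2 and Cxcl1 was not tested.

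Further ligands of Cxcr2 follow, of which Cxcl2, Cxcl3 and Cxcl5 were named after their values were seen. Ppbp, a platelet ligand of the same receptor, had a log2 fold change of -0.50 and is described with Pf4 below. Cxcl2, or MIP-2, was at 8.45 and 5.58 CPM in the knockout and at 2.25, 2.12 and 0.467 CPM in the heterozygous libraries. The groups did not overlap, and the log2 fold change of 2.12 ± 0.63 missed the threshold (edgeR adjusted p = 0.0678). Cxcl5, a ligand of epithelial cells, had 324 counts in knockout library 3, 1 count in heterozygous library 1 and none in the other libraries. Cxcl3 had 33 counts and Ccl20, the ligand of Ccr6, had 21 counts, all of them in knockout library 3. Cxcl1 was highest in that library as well. Cholangiocyte markers summed to 4.06 and 43.7 CPM in the knockout, with the high value in the same library 3, against 5.59 to 12.4 CPM in the heterozygous libraries. Of these 5 markers edgeR, DESeq2 and limma-voom called 0, with 1 lower at an unadjusted p under 0.05 by edgeR, and their part in these counts was not tested. Cxcr1, the sister receptor of Cxcr2, had 0 counts in every library.

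Cxcr3 and its ligands did not move together. Cxcr3, a receptor of activated T and NK cells, was at 28.0 and 19.2 CPM in the knockout libraries and at 8.96, 8.25 and 9.21 CPM in the heterozygous libraries. The heterozygous libraries were nearly equal and both knockout libraries were above them. The log2 fold change was 1.42 ± 0.19 (edgeR adjusted p = 0.0116), and among the fits without a library only that without heterozygous library 2 lost the call (1.38, edgeR adjusted p = 0.0570). Markers of T and NK cells summed to 113 and 66.7 CPM in the knockout against 39.2 to 60.2 CPM in the heterozygous libraries. Of the 10 markers, edgeR called Cd4 higher, a gene that some macrophages also express, and had 5 higher and 0 lower at an unadjusted p under 0.05, while DESeq2 called 3 higher. In knockout library 3, Cd3d, Cd4, Nkg7 and Klrb1c were above every heterozygous library, while Cd3e, Cd3g, Trac, Cd8a, Ncr1 and Gzma were not. Cd3e, a subunit of the T cell receptor complex, was at 15.9 and 2.57 CPM in the knockout against 1.46 to 3.37 CPM in the heterozygous libraries. Trac, Ncr1 and Gzma had negative log2 fold changes (-0.52, -0.82 and -1.05). The part of T and NK cells in the value of Cxcr3 was not tested.

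Cxcl9, an interferon-induced ligand of Cxcr3, was at 0.902 and 2.75 CPM in the knockout libraries and at 14.5, 11.3 and 8.97 CPM in the heterozygous libraries. All knockout values were lower than all heterozygous values. On the log2 scale the difference was -2.66 ± 0.51 (edgeR adjusted p = 0.0237), and the call was lost without heterozygous library 1 (-2.47, edgeR adjusted p = 0.0694) or 2 (-2.68, edgeR adjusted p = 0.0760). Without knockout library 3 the value was -3.67 and without knockout library 2 it was -2.07. Cxcl10, an interferon-induced ligand of the same receptor, was at 16.2 and 18.4 CPM in the knockout and at 16.1, 11.5 and 22.1 CPM in the heterozygous libraries. These values overlapped (0.06 ± 0.28, edgeR adjusted p = 0.905). Cxcl11, the remaining ligand, had no count in the knockout and 10, 3 and 12 counts in the heterozygous libraries, too few to test, and 41.7% of its exon bases lie in another annotated gene.

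Cxcl16, a membrane-bound ligand and scavenger receptor of macrophages, was the most abundant CXC gene with a call after Pf4 when set per kilobase. It was at 468 and 446 CPM in the knockout libraries and at 289, 282 and 297 CPM in the heterozygous libraries. Replicates lay within a narrow range in each group and the groups were well apart. Its log2 fold change was 0.66 ± 0.08 (edgeR adjusted p = 0.00938). It stayed between 0.62 and 0.73 in every alternative, while the call was lost without heterozygous library 1 (0.66, edgeR adjusted p = 0.0519) or 2 (0.65, edgeR adjusted p = 0.0534). Of its exon bases 18.3% overlap Zmynd15 on the opposite strand, and the strand setting of the counts is not given. Its receptor Cxcr6, found on T and NK cells, was at 5.81 and 1.47 CPM in the knockout and at 2.82, 2.26 and 0.508 CPM in the heterozygous libraries, which overlapped (0.96 ± 0.81, edgeR adjusted p = 0.465).

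Cxcl13 attracts B cells through Cxcr5. It was at 6.68 and 10.9 CPM in the knockout libraries and at 25.4, 15.4 and 20.3 CPM in the heterozygous libraries. The groups did not overlap, although the heterozygous libraries were spread widely. The fitted log2 difference was -1.21 ± 0.30 (edgeR adjusted p = 0.0431), and only the fit without knockout library 3 kept the call among those that leave out a library. In the other 4 fits the value ran from -1.37 to -0.90 and the adjusted p from 0.0712 to 0.151. Library-size scaling (edgeR adjusted p = 0.0505) and offsets for length and GC content (-0.88, edgeR adjusted p = 0.0837) also ended it. Cxcr5, a receptor of B cells, was at 15.3 and 8.28 CPM in the knockout and at 7.30, 8.69 and 6.29 CPM in the heterozygous libraries. Knockout library 2 stood above the rest and knockout library 3 lay within the heterozygous range (0.67 ± 0.30, edgeR adjusted p = 0.177). Without knockout library 3 it was 1.06 and passed (edgeR adjusted p = 0.0473). B cell markers summed to 612 and 381 CPM in the knockout against 291 to 403 CPM in the heterozygous libraries, and knockout library 2 was again the highest. Of the 8 markers edgeR and limma-voom called 0, with 3 at an unadjusted p under 0.05, and DESeq2 called 3.

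Cx3cr1, the fractalkine receptor of monocytes and many macrophages, was at 35.8 and 24.0 CPM in the knockout libraries and at 56.0, 54.3 and 50.2 CPM in the heterozygous libraries. Both knockout libraries were below the heterozygous ones. The log2 fold change was -0.84 ± 0.19 (edgeR adjusted p = 0.0328). Only the fit without knockout library 2 kept the call among those that leave out a library (-1.16, edgeR adjusted p = 0.0203). In the other 4 fits the value ran from -0.88 to -0.57 and the adjusted p from 0.0536 to 0.104. Its ligand Cx3cl1 was at 11.4 and 7.35 CPM in the knockout and at 8.03, 9.06 and 4.04 CPM in the heterozygous libraries, which overlapped (0.42 ± 0.38, edgeR adjusted p = 0.510).

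Pf4, or platelet factor 4, is stored in platelet granules and is also transcribed in macrophages. It was at 154 and 145 CPM in the knockout libraries and at 103, 104 and 98.8 CPM in the heterozygous libraries. The spread within each group was small beside the gap between them. Its log2 fold change was 0.55 ± 0.08 (edgeR adjusted p = 0.0146). The call was lost without knockout library 2 (0.51, edgeR adjusted p = 0.0555), heterozygous library 1 (0.56, edgeR adjusted p = 0.0626) or heterozygous library 2 (0.57, edgeR adjusted p = 0.0627), and with length and GC offsets (0.36, edgeR adjusted p = 0.0812). Ppbp, the other platelet chemokine, stayed at or under 2.73 CPM in every library, overlapping and not called (edgeR adjusted p = 0.637). The other 9 platelet markers summed to 13.8 CPM in knockout library 2 and to less than 7.39 CPM in knockout library 3, against 7.39 to 17.6 CPM in the heterozygous libraries. Of the 9, edgeR, DESeq2 and limma-voom called 0 higher, and 0 were higher at an unadjusted p under 0.05. These sums overlapped between the genotypes, and the part of platelets in the value of Pf4 was not tested.

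Cxcl14, a ligand with no settled receptor, was at 3.71 and 3.20 CPM in the knockout libraries and at 6.43, 6.82 and 5.64 CPM in the heterozygous libraries. The groups did not overlap, and the log2 fold change was -0.86 ± 0.22 (edgeR adjusted p = 0.0460). This call was lost in all 5 fits without a single library (-0.98 to -0.75, edgeR adjusted p = 0.0596 to 0.149), and with RLE scaling (adjusted p = 0.0503), upper-quartile scaling (adjusted p = 0.0533) or no filter (adjusted p = 0.0728). Cxcl12, the homeostatic ligand that stromal and endothelial cells make, was at 21.0 and 20.2 CPM in the knockout and at 27.3, 25.7 and 31.9 CPM in the heterozygous libraries. Both knockout libraries were lowest (-0.46 ± 0.14, edgeR adjusted p = 0.0739). Markers of stellate cells and fibroblasts summed to 69.1 and 75.9 CPM in the knockout against 115 to 123 CPM in the heterozygous libraries, with 4 of 9 lower (Col1a1, Col3a1, Col1a2 and Rgs5) and Pdgfrb higher. Sinusoidal endothelial markers summed to 1074 and 1054 CPM in the knockout against 1172 to 1363 CPM in the heterozygous libraries, with 3 of 9 lower. No marker of either list was at 0 in every library, and their part in the values of Cxcl12 and Cxcl14 was not tested. Cxcr4, the receptor of Cxcl12, was at 8.57 and 6.87 CPM in the knockout and at 5.30, 3.73 and 2.39 CPM in the heterozygous libraries, with no overlap but no call (1.02 ± 0.35, edgeR adjusted p = 0.100).

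Ccrl2 binds chemerin and presents it to other cells without signalling itself. It was at 59.6 and 42.1 CPM in the knockout libraries and at 22.3, 25.1 and 26.8 CPM in the heterozygous libraries. Both knockout libraries exceeded all heterozygous ones. On the log2 scale the difference was 1.04 ± 0.18 (edgeR adjusted p = 0.0178). The call was lost without knockout library 2 (0.77, edgeR adjusted p = 0.0587), heterozygous library 1 (0.97, edgeR adjusted p = 0.0643) or heterozygous library 2 (1.06, edgeR adjusted p = 0.0711). Cmklr1, the signalling receptor for chemerin, was at 12.5 and 16.3 CPM in the knockout and at 12.2 to 17.7 CPM in the heterozygous libraries, fully overlapping (-0.06 ± 0.21, edgeR adjusted p = 0.873).

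Of the 4 numbered atypical receptors edgeR, DESeq2 and limma-voom called 0, and edgeR had 1 at an unadjusted p under 0.05. Ackr1, which binds many chemokines on red cells and endothelium, was at 7.07 and 13.4 CPM in the knockout and at 7.26, 5.80 and 6.19 CPM in the heterozygous libraries. Knockout library 3 stood apart and knockout library 2 lay among the heterozygous ones (0.67 ± 0.30, edgeR adjusted p = 0.174), and 25.7% of its exon bases overlap Cadm3 on the same strand. Ackr2, a scavenger of inflammatory CC ligands, was at 4.99 and 2.51 CPM in the knockout against 5.20 to 7.97 CPM in the heterozygous libraries (-0.77 ± 0.36, edgeR adjusted p = 0.198). Ackr4, a scavenger of Ccl19, Ccl21 and Ccl25, was at 0.584 and 0.323 CPM in the knockout against 0.755 to 2.46 CPM in the heterozygous libraries (-1.68 ± 0.66, edgeR adjusted p = 0.133). Ackr3, a scavenger of Cxcl12, overlapped (0.09 ± 0.49, edgeR adjusted p = 0.924).

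Ccr7, which guides dendritic cells and lymphocytes to lymph nodes, was at 25.1 and 9.21 CPM in the knockout and at 17.5, 13.4 and 13.5 CPM in the heterozygous libraries. The knockout libraries were the highest and the lowest of all 5, so there was no common direction (0.21 ± 0.40, edgeR adjusted p = 0.766), and without knockout library 2 the sign turned (-0.68). Its ligands Ccl19 and Ccl21a had 11 counts or fewer in every library. Ccl19 shares 52% and Ccl21a 71.6% of its 50-base stretches with other genes, so some of their reads may not have been assigned. Ccl17 and Ccl22, ligands of Ccr4, leaned in opposite directions without a call. Ccl17 was at 0.822 and 0.646 CPM in the knockout against 1.10 to 1.66 CPM in the heterozygous libraries (edgeR adjusted p = 0.144). Ccl22 was at 1.09 and 1.21 CPM in the knockout against 0.0686 to 0.414 CPM in the heterozygous libraries (2.61 ± 0.86, edgeR adjusted p = 0.0901). It passed the filter on low counts through the knockout libraries. Dendritic cell markers other than Xcr1 summed to 85.9 and 82.8 CPM in the knockout against 50.5 to 67.7 CPM in the heterozygous libraries. Most of that sum was Batf3, the only gene called (57.7 and 59.5 CPM in the knockout against 30.5 to 39.6 CPM). The log2 fold changes of the others ran from -0.89 (Flt3) to 1.27 (Itgae). The part of dendritic cells in these values was not tested. Xcr1, the receptor of cross-presenting dendritic cells, overlapped between genotypes (-0.12 ± 0.41, edgeR adjusted p = 0.878), as did its ligand Xcl1 (1.45 ± 1.13, edgeR adjusted p = 0.429).

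Altogether 32 tested genes were not called, with adjusted p from 0.0541 to 0.957, and 10 of them differed by 1 or more on the log2 scale in either direction. Besides the genes described, these include Ccl25, Ccl27a, Ccr6 and Ccr10, each at or below 3.51 CPM in every library. Of these, Ccr10, a receptor of skin-homing cells, had its knockout libraries above the heterozygous ones (2.19 ± 0.70, edgeR adjusted p = 0.0816), while Ccl25 and Ccr6 had theirs below. Ccr10 passed the filter on low counts through the knockout libraries and Ccr6 through the heterozygous ones. The 14 genes under the filter were Cxcl3, Cxcl5, Cxcl11, Cxcl15, Cxcl17, Ccl11, Ccl19, Ccl20, Ccl21a, Ccl26, Ccl28, Ccr4, Ccr8 and Ccr9. All but Cxcl5 were under 0.5 CPM in every library. Ccl1, Cxcr1, Ccl21b and Ccl27b had 0 counts throughout, where a limit of 3 counts allows 0.0365 to 0.0412 CPM per library for counting error alone. Ccl21b shares 100%, Ccl27b 98.1% and Ccl27a 45% of its 50-base stretches with other genes, so reads from them may not have been assigned.

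**Figure D4:**
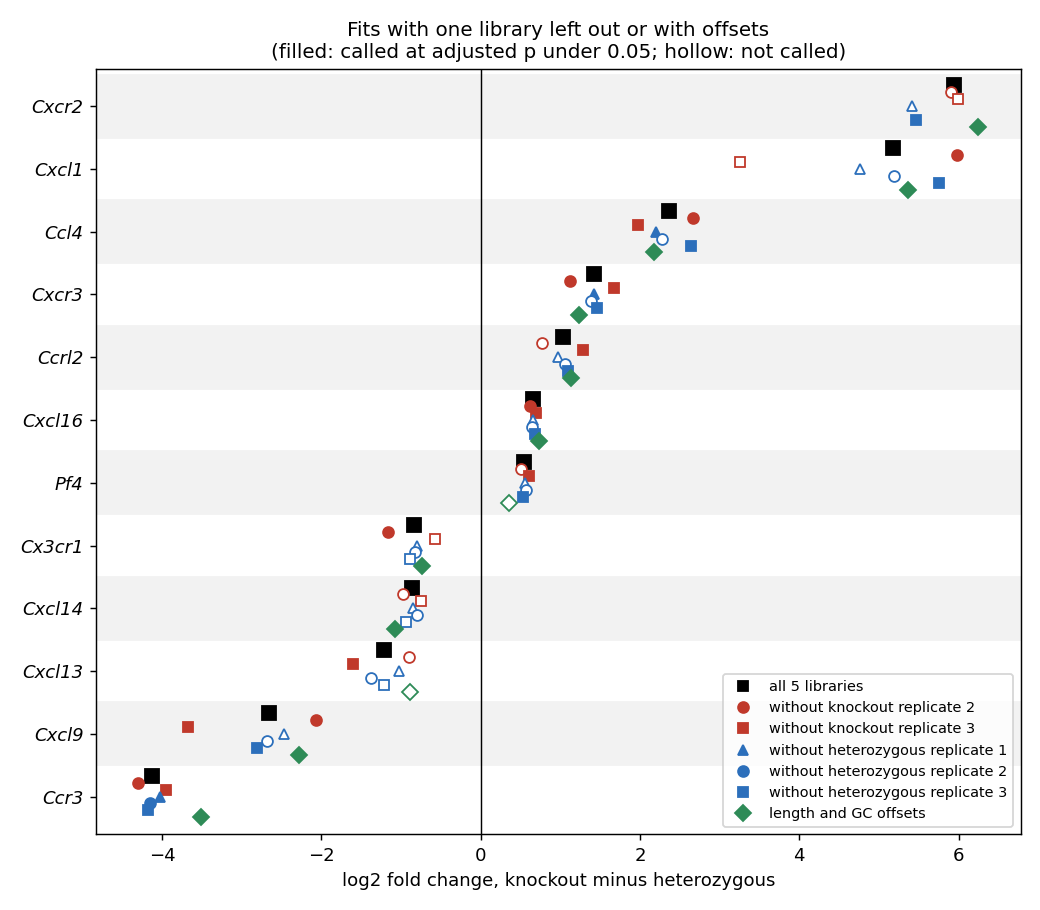
Log2 fold change (knockout minus heterozygous) of 12 of the 13 called genes with all 5 libraries (black), without each library in turn (red for a knockout, blue for a heterozygous library left out) and with offsets for length and GC content (green), filled where the gene was called and hollow where it was not. No direction turns in any of them, Ccr3 is filled throughout, and the fit of Cxcr2 without heterozygous library 2, where that group has 0 counts, is not drawn.

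Genes that carry the signal from a chemokine receptor into the cell were called in both directions. Of 36 tested, 2 were higher and 4 lower (16.7%, against 16.4% of all genes tested), with a median log2 fold change of 0.16. Fgr, a Src-family kinase, was at 365 and 385 CPM in the knockout against 207 to 237 CPM in the heterozygous libraries (0.78 ± 0.10, edgeR adjusted p = 0.00957). Adrbk1, the kinase that uncouples activated receptors, was also higher (0.48 ± 0.11, edgeR adjusted p = 0.0336). Rgs2, which ends G-protein signals, was at 112 and 130 CPM in the knockout against 178 to 203 CPM in the heterozygous libraries (-0.67 ± 0.11, edgeR adjusted p = 0.0169). Lyn, another Src-family kinase, was lower (-0.64 ± 0.13, edgeR adjusted p = 0.0281), and so were the G-protein subunit Gng2 (-0.61 ± 0.12, edgeR adjusted p = 0.0229) and the GTPase Cdc42 (-0.38 ± 0.08, edgeR adjusted p = 0.0317). The most abundant others, the inhibitory G-protein subunit Gnai2 (0.18 ± 0.10, edgeR adjusted p = 0.242) and the GTPase Rac2 (0.40 ± 0.12, edgeR adjusted p = 0.0757), were not called. Without heterozygous library 2 edgeR called 0 of the 36, with 10 at an unadjusted p under 0.05, beside 4071 over all genes in that fit. With all libraries DESeq2 called 17 and limma-voom 9.

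Receptors for other attractants were called in both directions. Of 19 tested, 3 were higher and 3 lower (31.6%, against 16.4% of all genes tested), with a median log2 fold change of 0.01. Ptafr, the receptor for platelet-activating factor, was at 20.9 and 14.6 CPM in the knockout against 5.29 to 6.07 CPM in the heterozygous libraries (1.64 ± 0.20, edgeR adjusted p = 0.00974). S1pr2, a sphingosine-1-phosphate receptor (0.51 ± 0.10, edgeR adjusted p = 0.0228), and the complement receptor C5ar1 (0.39 ± 0.10, edgeR adjusted p = 0.0457) were higher as well. P2ry12, an ADP receptor of platelets and microglia, was at 7.97 and 8.17 CPM in the knockout against 23.1 to 43.3 CPM in the heterozygous libraries (-2.03 ± 0.28, edgeR adjusted p = 0.0121). Lpar6, a receptor for lysophosphatidic acid (-1.06 ± 0.24, edgeR adjusted p = 0.0349), and the leukotriene receptor Cysltr2 (-2.22 ± 0.54, edgeR adjusted p = 0.0412) were lower. The formyl peptide receptor Fpr1 (-0.41 ± 0.13, edgeR adjusted p = 0.0781) and the complement receptor C3ar1 (0.01 ± 0.18, edgeR adjusted p = 0.979) were the most abundant without a call. Without knockout library 2 or without heterozygous library 2, 1 of the 19 was called.

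Proteases that trim or shed chemokines, and a regulator of shedding, were called in both directions. Of 17 tested, 3 were higher and 5 lower (47.1%, against 16.4% of all genes tested), with a median log2 fold change of -0.19. Dpp4, which clips the amino end of Cxcl9, Cxcl10, Cxcl12 and other chemokines, was at 2.90 and 2.18 CPM in the knockout against 10.4 to 15.9 CPM in the heterozygous libraries (-2.32 ± 0.28, edgeR adjusted p = 0.00932). Adam10, a sheddase of Cxcl16 and Cx3cl1, was at 22.7 and 20.1 CPM in the knockout against 59.3 to 103 CPM in the heterozygous libraries (-1.92 ± 0.24, edgeR adjusted p = 0.00997). Adam17, which sheds Cx3cl1 and many cytokines, was at 77.0 and 89.2 CPM in the knockout against 135 to 202 CPM in the heterozygous libraries (-0.96 ± 0.19, edgeR adjusted p = 0.0245). Rhbdf2, which helps Adam17 mature, was at 288 and 252 CPM in the knockout against 138 to 160 CPM in the heterozygous libraries (0.85 ± 0.11, edgeR adjusted p = 0.00977).

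Among the other proteases of the list, Mmp14, a membrane metalloprotease, was at 52.0 and 52.2 CPM in the knockout against 19.5 to 26.2 CPM in the heterozygous libraries (1.24 ± 0.15, edgeR adjusted p = 0.00974). Mmp9, which is also a neutrophil marker, was at 259 and 158 CPM in the knockout against 87.7 to 105 CPM in the heterozygous libraries (1.08 ± 0.21, edgeR adjusted p = 0.0240). Anpep, an aminopeptidase, was lower (-1.27 ± 0.18, edgeR adjusted p = 0.0122). F2, the prothrombin gene of hepatocytes, was lower too (-1.74 ± 0.24, edgeR adjusted p = 0.0122), as were 6 of the 10 hepatocyte markers given above. Of the remaining hepatocyte markers, Apoa2 (-0.08) and Ttr (-0.10) were highest in knockout library 3. The relation of F2 to these markers was not tested. The lysosomal cathepsins Ctsb (0.04 ± 0.11, edgeR adjusted p = 0.852) and Ctss (-0.31 ± 0.11, edgeR adjusted p = 0.102) were the most abundant without a call. Without heterozygous library 1 or 2 the list had 5 and 2 genes called.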

How the data were processed

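The authors deposited unnormalised counts of reads in each gene and library. HTSeq 0.5.4, DESeq 1.18.0, R 3.1.2 and the build mm9 appear, without their roles, per the submitters' processing notes. For the aligner, annotation and strand setting the sources used here give nothing. Of 46983 gene IDs, 37902 carry the version of GENCODE M21, a release on GRCm38, so the build of the counts is uncertain and no coordinates are given for them. Exon length, GC content and overlaps came from M21 (46488 IDs matched). Promoter windows came from RefSeq.

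Entries naming no gene (40.0% and 42.8% of the knockout, 47.0% to 48.6% of the heterozygous totals) were left out. Reads with several alignments were 32.3% and 34.1% of aligned reads in the knockout and 38.3% to 41.0% in the heterozygous libraries, so close paralogs are counted in part. Every pair of libraries differed by more than sampling noise. Column names carry an unexplained "3w".

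Knockout minus heterozygous was fitted in R 4.3.3 with edgeR 4.0.16 (filterByExpr with a minimum count of 10, TMM, quasi-likelihood test, no covariate; common biological coefficient of variation 0.339). P-values were Benjamini-Hochberg adjusted over the 16436 genes tested, and calls needed an adjusted p under 0.05. The SE is the log2 fold change divided by the root of the F statistic. Intervals and floors (3 counts) cover counting error only, and amplified reads without molecular identifiers are not independent molecules. The scripts were tested on simulated data. Alternatives were DESeq2 1.42.0, limma-voom (limma 3.58.1), RLE, upper-quartile and library-size scaling, no filter, at least 1 CPM in 2 libraries, a replicate block, offsets for exon length and GC content (mgcv 1.9.3) and leaving out each library. The gene set, marker lists and pathway lists were chosen with earlier results of these data known. Genes were named by rule: every called gene of the set, the 12 others with the highest mean CPM, and of each pathway list all called genes and the 2 others with the highest mean CPM. Further genes were named after their values were seen. Values of some genes are not reported here, although counts over the set include them.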

Additional observations from a re-analysis of the deposited data

How the results depend on the processing

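Over all genes, edgeR called 2698 (1054 higher and 1644 lower in the knockout), DESeq2 4629, the fit with length and GC offsets 1579 (781 higher and 798 lower), and fits without a single library 335 to 2540. Upper-quartile scaling called 1443 higher and 1499 lower, and the 1 CPM filter 1568 higher and 1929 lower. Of the chemokine and receptor genes, DESeq2 called 12 higher, and fits without a single library called 0 to 11 higher and 1 to 5 lower. The 0 came without heterozygous library 2, where edgeR had 18 of the 45 at an unadjusted p under 0.05, 11 of them higher. Over all genes that fit had 4071 at an unadjusted p under 0.05. The signal transduction list had 17 calls with DESeq2, 13 with the 1 CPM filter, 2 with offsets and 0 to 13 without a single library. The other chemoattractant receptors had 1 to 4 and the protease list 2 to 9 calls without a single library. A replicate block left 1 gene called in all and 0 higher and 0 lower in the chemokine set, and 0 in each of the 3 pathway lists. At an unadjusted p under 0.05 it had 23 of the 45 chemokine and receptor genes, beside 3497 of the 16436 genes tested. The labels say nothing of a shared source, so the pairing is by number alone. Deviations of same-numbered libraries from their group means had r = -0.026 for number 2 and -0.062 for number 3. With 2 knockout libraries these deviations mirror each other, so these correlations cannot show whether same-numbered libraries shared a source. Signs turned for Ccl6 (0.08 with offsets), Ccl9 (0.02 with the block, 0.36 with offsets), Ccl5 (0.02 with upper-quartile scaling, 0.24 with the block, -0.54 to 0.34 without a single library, with 0.34 without knockout library 3 and 0.29 without heterozygous library 1), Ccr7 (-0.68 without knockout library 2, up to 0.77 without knockout library 3) and Cxcl10 (-0.02 without knockout library 3, -0.14 without heterozygous library 2, up to 0.33 without heterozygous library 3), none of which was called. No called gene turned its sign in any alternative. The cause of these changes was not tested; fits without a library have fewer samples. With 2 and 3 samples, genes under about 1 CPM rest on few counts.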
